A study of Mus musculus with 16 samples.

Results

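The 7 genes described here encode the calcium pumps of the endoplasmic reticulum and of the plasma membrane. They are Atp2a1, Atp2a2 and Atp2a3 (the SERCA genes) and Atp2b1, Atp2b2, Atp2b3 and Atp2b4 (the PMCA genes). They were found by gene symbol, as 7 of the 21220 genes in the authors' normalized table. The 7 genes were chosen with earlier results of these data known. The tissue was the organ of Corti, which holds the sensory hair cells of the cochlea, taken from C57BL/6 mice of postnatal day 0 and cultured for 3.5 days. The 4 groups were heterozygous cultures (Rest+/deltaExon4, with 1 Rest allele lacking exon 4) with FK228, heterozygous cultures in solvent, wild-type cultures with FK228 and wild-type cultures in solvent. FK228, a class I histone deacetylase inhibitor, was given at 2 nM, and the solvent was 0.1% DMSO, from day 1 to 1.5 and again from day 3 to 3.5 in culture. Each group held 4 libraries, and each library was made from the RNA of 6 to 8 pooled cultures. The labels do not say whether pools came from separate litters, so a p-value here covers only the variation from pool to pool, which may be technical. The cultures are mixed tissue with markers of hair cells, supporting cells, neurons, mesenchyme and macrophages. In such bulk RNA, fewer cells of a type and less RNA per cell cannot be told apart.

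SERCA pumps use ATP to move calcium out of the cytosol into the endoplasmic reticulum, which refills the store that release channels empty. PMCA pumps use ATP to push calcium out of the cell and are activated by calmodulin. In the cochlea, PMCA2 (Atp2b2) is known as the pump of hair cell stereocilia, and mice that lack it are deaf. REST represses neuronal genes and does so in part through histone deacetylases, the enzymes that FK228 inhibits.

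The calcium pump that stood out was Atp2a3, the gene of SERCA3, a pump of low calcium affinity known from blood cells, epithelia and endothelium. In solvent its level was 16.3-fold lower in heterozygous cultures than in wild type, and no other pump gene passed the test in that comparison. With FK228 its level in heterozygous cultures was 11.5-fold higher than in solvent, whereas in wild type the same exposure gave a 1.31-fold higher level that did not pass. No other tested pump gene was called higher in heterozygous solvent cultures, and the mean summed transcripts of neither pump family were higher there in bulk RNA. FK228 also raised Atp2b4 in both genotypes.

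The sequence before the start of Atp2a3 is shown because that gene carries the main difference, beside that of Atp2b1, the most abundant pump gene per exon length, as a contrast. Both are the 250 bases upstream of a start annotated by RefSeq on GRCm38.p6, read 5′ to 3′ on the gene's own strand, and matched by symbol. Of the 7 genes 5 were matched in the table of windows. Capitals mark GGGCGG or its reverse complement, the core of a GC box. The Atp2a3 window is chr11:72960919-72961168 on the plus strand, and the Atp2b1 window shown is chr10:98914392-98914641 on the plus strand. The GENCODE start of Atp2b1, 98914406, lies inside that window, so most of it is not upstream by that annotation. Atp2b1 had another window, chr10:98914902-98915151, which is not shown.
Atp2a3: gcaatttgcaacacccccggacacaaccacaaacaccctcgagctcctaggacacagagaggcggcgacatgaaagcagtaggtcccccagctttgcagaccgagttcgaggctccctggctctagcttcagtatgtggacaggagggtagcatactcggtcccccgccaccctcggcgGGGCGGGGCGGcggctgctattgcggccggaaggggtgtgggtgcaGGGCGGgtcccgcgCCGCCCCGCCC
Atp2b1: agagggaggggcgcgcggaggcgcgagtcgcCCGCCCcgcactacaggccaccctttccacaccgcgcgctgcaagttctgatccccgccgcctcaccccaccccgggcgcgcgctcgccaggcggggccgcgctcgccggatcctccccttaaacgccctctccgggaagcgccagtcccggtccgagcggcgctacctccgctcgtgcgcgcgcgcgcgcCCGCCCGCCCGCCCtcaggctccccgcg
The Atp2a3 window held 5 matches of GGGCGG on both strands, counting overlapping ones. The Atp2b1 window shown held 4, and its other window held 3. Of all 32851 windows of that length in the table, 32.7% held at least 1 match. The Atp2a3 window held 20 CG dinucleotides and a GC content of 66.8%, against a median of 6 and 52.4% over all windows. The Atp2b1 window shown held more, with 43 CG dinucleotides and a GC content of 78.4%. The left part of the REST-binding element, TTCAGCACC, and the stretch GGACAGC from its right part were also searched on both strands. Neither was in the Atp2a3 window or in the Atp2b1 window shown, and 0.301% and 5.28% of all windows held them. That says only that these letters were not in these windows of 250 bases.

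Rest itself, the altered gene, averaged 81.0 ± 4.80 CPM in heterozygous cultures with FK228 and 88.3 ± 7.64 CPM in heterozygous cultures in solvent. It averaged 73.8 ± 4.53 CPM in wild type with FK228 and 81.4 ± 5.42 CPM in wild type in solvent (SD, n = 4 each). The difference between genotypes in solvent was a log2 fold change of 0.12 ± 0.08 (SE), with an adjusted p of 0.654 in edgeR's quasi-likelihood test. A count over the whole gene does not check a missing exon. Levels are counts scaled to library size with TMM factors (CPM), and errors of levels are SDs of the 4 libraries of a group. Total gene counts ran from 12361027 to 14153838 in heterozygous cultures with FK228, 14627922 to 15674930 in heterozygous in solvent, 16224586 to 17656274 in wild type with FK228 and 17462876 to 23611571 in wild type in solvent. The share of ERCC spike-in counts was 0.312% to 0.393% in heterozygous cultures with FK228, against 0.156% to 0.237% in the other 3 groups. The markers of hair cells (16 of 16), supporting cells (11 of 11), neurons (12 of 12) and macrophages (10 of 10) were high enough to be tested, as were 8 of 8 of mesenchyme.

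Atp2a3 lies on chromosome 11, 72961169 to 72993044 (GRCm38, plus strand), and no other annotated gene overlaps its exons. In heterozygous cultures with FK228, libraries 2, 3, 4 and 5 had 6.35, 7.38, 6.01 and 7.79 CPM. In heterozygous cultures in solvent, libraries 1, 2, 4 and 5 had 0.629, 0.917, 0.673 and 0.137 CPM, which were 9, 14, 10 and 2 counts. The 4 heterozygous solvent libraries were the lowest of all 16. In wild type with FK228 the 4 libraries had 10.96, 14.1, 13.8 and 12.5 CPM. In wild type in solvent they had 12.7, 8.14, 7.85 and 10.3 CPM. The heterozygous libraries with FK228 lay between the heterozygous solvent libraries and both wild-type groups, with no overlap with any of them, and the 2 wild-type groups overlapped.

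In solvent, the log2 fold change of Atp2a3 in heterozygous against wild-type cultures was -4.03 ± 0.29 (SE, adjusted p = 5.89e-08). All 4 heterozygous libraries lay below all 4 wild-type libraries. It was the only 1 of the 6 pump genes tested to pass, where 2.03% of the 17125 genes tested passed in either direction. The call held in each of the 16 fits that left out 1 library, with log2 fold changes of -4.33 to -3.71.

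With FK228 on both sides, Atp2a3 was lower in heterozygous cultures by a smaller amount, with a log2 fold change of -0.90 ± 0.22 (adjusted p = 0.0344). Together with Atp2b2 it made 2 of 6 pump genes called, where 2.14% of all genes were called. The Atp2a3 call was lost in 7 of the 16 fits without 1 library: without heterozygous FK228 libraries 2, 3 or 4, and without wild-type FK228 libraries 1, 2, 4 or 7. Adjusted p over the 16 fits ran from 0.00839 to 0.115. Heterozygous cultures with FK228 against wild type in solvent gave -0.51 ± 0.22 for Atp2a3 (adjusted p = 0.0593, 4 of 4 libraries below all wild-type solvent libraries). By spike-in scaling the value was -1.37 and passed (adjusted p = 3.25e-05), where the median of all genes lay at -0.89.

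FK228 raised Atp2a3 in heterozygous cultures by 3.52 ± 0.29 on the log2 scale (adjusted p = 2.42e-08, higher in 4 of 4 libraries). In wild type the difference was 0.39 ± 0.21 (adjusted p = 0.132), and the groups overlapped. That value passed only without wild-type solvent library 1, at an adjusted p of 0.0472. The difference of the 2 effects, heterozygous minus wild type, was 3.13 ± 0.37 (adjusted p = 0.0014), with a 95% interval of 2.36 to 3.90. Of the 6 pump genes tested, 1 was called in this comparison, where 0.0234% of all genes were called. Those 4 genes, named after their values were seen, were Atp2a3, Snap25, Sncb and Cplx2. Atp2a3 had the smallest p of all genes. Cplx2, the gene of complexin-2 of the exocytosis machinery, had the opposite sign, at -0.80 ± 0.10 (adjusted p = 0.00328).

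**Figure D1:**
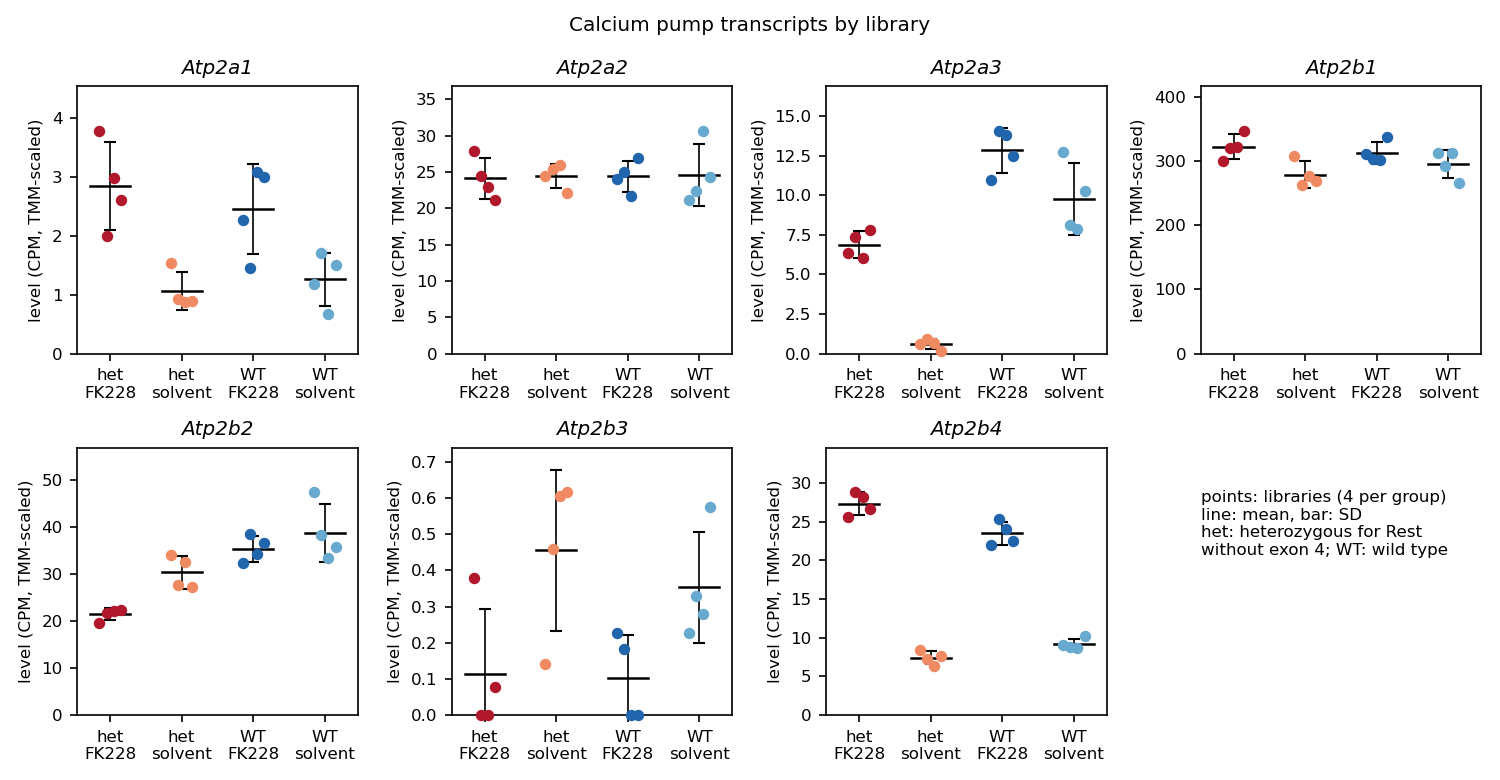
Level of each pump gene in CPM (TMM-scaled, linear axes from 0) in the 16 libraries, with points for libraries, lines for group means and bars for SDs, and the heterozygous groups left of wild type. Atp2a3 is at 0.137 to 0.917 CPM in the heterozygous solvent libraries and at 6.01 CPM or more in all others, and Atp2b4 is higher in both FK228 groups.

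The question of whether another pump makes up for Atp2a3 was asked at the level of transcripts per exon length, so that genes can be set beside each other. Atp2a2, the gene of SERCA2, the SERCA pump found in nearly all cells, lies on chromosome 5, 122453513 to 122502225 (minus strand). It had 27.9, 24.4, 22.9 and 21.2 CPM in heterozygous cultures with FK228, and 24.5, 25.3, 25.9 and 22.1 CPM in heterozygous cultures in solvent. It had 24.1, 25.0, 21.7 and 26.9 CPM in wild type with FK228, and 21.1, 22.3, 30.7 and 24.3 CPM in wild type in solvent. All groups overlapped, and by TMM scaling Atp2a2 did not pass in any of the 6 comparisons. By spike-in scaling it was lower in 3 of them, by a log2 fold change of -0.74 between genotypes with FK228 (adjusted p = 0.00203), -0.73 with FK228 in heterozygous cultures (adjusted p = 0.00236) and -0.93 in heterozygous FK228 against wild-type solvent cultures (adjusted p = 0.000201). The median of all genes lay at -0.74, -0.72 and -0.89 there by that scaling. In heterozygous against wild-type solvent cultures its log2 fold change was -0.01 ± 0.12, with a 95% interval up to 0.25, so a higher level in heterozygous cultures of more than 0.25 on the log2 scale lay outside the interval.

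Per kilobase of exon, Atp2a3 averaged 0.11 ± 0.062 CPM in heterozygous solvent cultures and 1.85 ± 0.43 CPM in wild-type solvent cultures, a difference of -1.74 ± 0.22 (SE). For Atp2a2 the same difference was -0.02 ± 0.38 CPM per kb and for Atp2a1 -0.06 ± 0.079 CPM per kb. The summed level of the 3 SERCA genes was 4.44 ± 0.35 CPM per kb in heterozygous solvent cultures and 6.26 ± 0.42 in wild type, a difference of -1.82 ± 0.27 that is close to that of Atp2a3 alone. The summed level of the 4 PMCA genes was 21.4 ± 1.61 CPM per kb in heterozygous solvent cultures and 23.3 ± 1.62 in wild type, a difference of -1.88 ± 1.14. Neither family had a higher mean sum in the heterozygous solvent cultures. In wild-type solvent cultures Atp2a2 made up 64.5% of the SERCA sum and Atp2b1 83.2% of the PMCA sum. A rise confined to a few cells might not show in such sums of bulk RNA, and was not tested. No p is given for the sums, since the members were chosen with earlier results known.

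Atp2a3 made up 2.44% ± 1.30 of the summed SERCA transcripts per kb in heterozygous solvent cultures and 29.6% ± 7.05 in wild type, whereas Atp2a2 made up 90.7% ± 2.19 in heterozygous solvent cultures and 64.5% ± 7.97 in wild type. With FK228 the Atp2a3 share was 21.6% ± 3.72 in heterozygous cultures and 34.0% ± 3.54 in wild type. The summed SERCA level with FK228 was 6.08 ± 0.54 CPM per kb in heterozygous cultures, against 6.26 ± 0.42 in wild type in solvent, a difference of -0.17 ± 0.35. The ratio of summed SERCA CPM, heterozygous with FK228 to wild type in solvent, was 0.949 by TMM and 0.514 by spike-in scaling. The ratio with FK228 to solvent in heterozygous cultures was 1.30 by TMM and 0.792 by spike-in scaling, so its direction depends on the scaling.

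**Figure D2:**
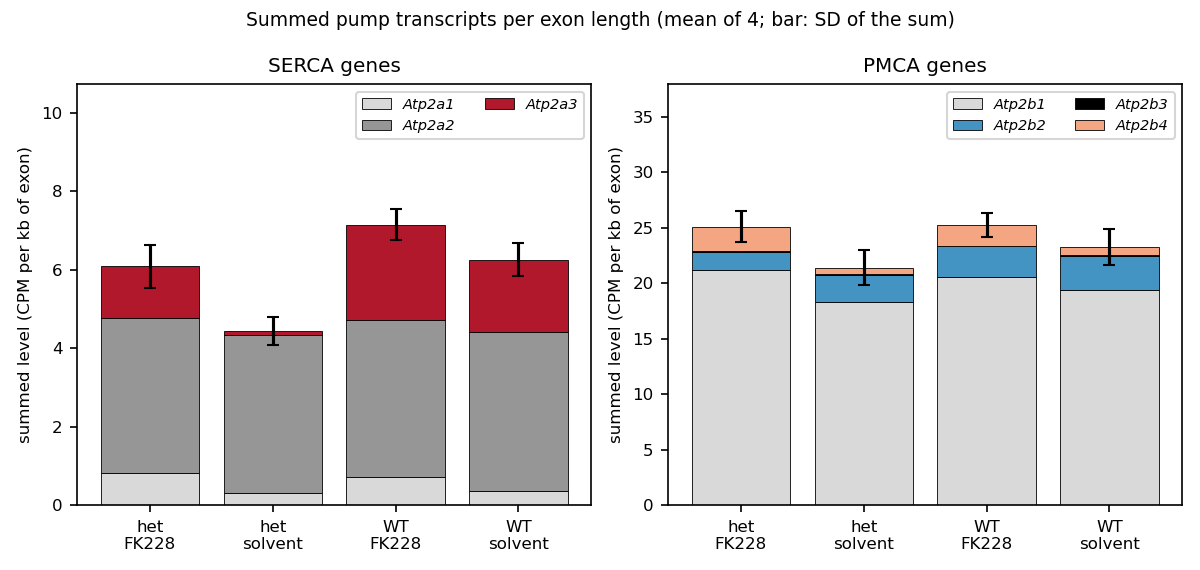
Summed level of the SERCA genes (left) and PMCA genes (right) in CPM per kb of exon by group, as means of 4 libraries stacked by gene, with bars for the SD of the sum, in TMM scaling. The Atp2a3 part is 0.11 in heterozygous solvent cultures against 1.85 in wild-type solvent cultures, and Atp2a2 is between 3.96 and 4.04 in all 4 groups. By spike-in scaling, the mean sums of CPM in heterozygous cultures with FK228 lay below those of the other groups. For SERCA, single libraries of the heterozygous groups overlapped by that scaling.

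Atp2a1 encodes SERCA1, the pump of fast skeletal muscle, and lies on chromosome 7, 126445858 to 126463108 (minus strand). Its 3477 exon bases overlap those of Rabep2 on the other strand by 763 bases, and counting did not use the strand, so its values are uncertain. It had 3.78, 2.00, 2.97 and 2.60 CPM in heterozygous cultures with FK228 and 1.54, 0.917, 0.875 and 0.890 CPM in heterozygous cultures in solvent. It had 2.27, 1.450, 3.08 and 3.0 CPM in wild type with FK228 and 1.18, 1.71, 0.673 and 1.49 CPM in wild type in solvent. FK228 raised it by 1.42 ± 0.34 (log2) in heterozygous cultures (adjusted p = 0.0019) and by 0.96 ± 0.32 in wild type (adjusted p = 0.02). In wild type 1 FK228 library lay within the range of the solvent libraries, and that call was lost without wild-type FK228 library 4 or 7 or wild-type solvent library 3. Scaled by spike-ins, the 2 log2 fold changes were 0.69 and 0.81 and neither passed (adjusted p = 0.105 and 0.0789). Of the 10 skeletal muscle markers 4 could be tested, and 2 of them, Mylpf and Actn3, were higher with FK228 in both genotypes. Of all genes, 23.8% were higher with FK228 in heterozygous cultures and 23.7% in wild type. The summed level of the 10 markers averaged 16.02 CPM in heterozygous cultures with FK228, 8.72 in heterozygous in solvent, 19.6 in wild type with FK228 and 10.7 in wild type in solvent, and between 0 and 3 of the 10 were at 0 in a group. The part of muscle cells in the Atp2a1 values was not tested.

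Atp2b4 encodes PMCA4 and lies on chromosome 1, 133699457 to 133801041 (minus strand). In heterozygous cultures with FK228 it had 25.6, 28.8, 28.2 and 26.7 CPM, and in solvent 8.46, 7.27, 6.40 and 7.60 CPM. In wild type it had 22.0, 25.3, 24.0 and 22.5 CPM with FK228 and 9.08, 8.80, 8.64 and 10.2 CPM in solvent. The FK228 libraries lay above the solvent libraries in both genotypes without overlap. The FK228 effect was a log2 fold change of 1.88 ± 0.11 in heterozygous cultures (adjusted p = 4.84e-10, a 3.68-fold rise) and 1.35 ± 0.10 in wild type (adjusted p = 1.31e-08, a 2.56-fold rise). The difference of these 2 effects, 0.52 ± 0.15, did not pass (adjusted p = 0.516). Of the pump genes tested, 5 of 6 were called with FK228 in heterozygous cultures, where 48.4% of all genes were called, and 2 of 6 in wild type, where 49% of all genes were called. Both shares are to be read against those backgrounds. Scaled by spike-ins, FK228 raised Atp2b4 by 1.14 in heterozygous and by 1.21 in wild-type cultures. By genotype, Atp2b4 was 1.23-fold lower in heterozygous solvent cultures and 1.16-fold higher with FK228 on both sides, each with no overlap of the 4 and 4 libraries, and neither passed (adjusted p = 0.225 and 0.36). By spike-in scaling the difference with FK228 on both sides was -0.52 and passed in the opposite direction (adjusted p = 0.0125).

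Atp2b2 lies on chromosome 6, 113743831 to 114042613 (minus strand). In heterozygous cultures with FK228 it had 19.6, 21.8, 22.2 and 22.4 CPM, and in solvent 34.2, 27.7, 32.7 and 27.3 CPM. In wild type it had 32.3, 38.6, 34.2 and 36.7 CPM with FK228 and 47.5, 38.5, 33.5 and 35.8 CPM in solvent. The heterozygous FK228 libraries were the 4 lowest of the 16. Against wild type with FK228 the log2 fold change was -0.72 ± 0.11 (adjusted p = 0.00132), and against heterozygous cultures in solvent -0.50 ± 0.11 (adjusted p = 0.00125). The genotype difference in solvent was -0.35 ± 0.11 and did not pass (adjusted p = 0.138, with overlapping groups). In wild type FK228 gave -0.13 ± 0.11 (adjusted p = 0.332), and the difference of the 2 FK228 effects, -0.37 ± 0.16, did not pass (adjusted p = 0.824). Heterozygous cultures with FK228 against wild type in solvent gave -0.85 ± 0.11 (adjusted p = 5.47e-06). In that comparison 3 of 6 pump genes were called, where 50.7% of all genes were called. They were Atp2b2 on the lower side, and Atp2a1 and Atp2b4 on the higher side, at 1.16 ± 0.33 (adjusted p = 0.0059) and 1.57 ± 0.11 (adjusted p = 2.08e-09).

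The 16 markers of hair cells were measured beside Atp2b2. They summed to 562 ± 37.8 CPM in heterozygous cultures with FK228 and 775 ± 54.1 in wild type with FK228, and to 524 ± 101 CPM in heterozygous cultures in solvent and 716 ± 105 in wild type in solvent. Of the 16, 3 were lower in heterozygous cultures with FK228 and 3 in solvent, with a median log2 fold change of -0.34 and -0.37, where 0.928% and 0.823% of all genes were lower. With FK228 against solvent, 7 were lower and 1 higher in heterozygous cultures (median -0.69), where 24.7% and 23.8% of all genes were. In wild type 8 were lower and 1 higher (median -0.47), where 25.3% and 23.7% of all genes were. The mean sums were higher with FK228 in both genotypes, but the libraries overlapped. They ran from 512 to 602 CPM with FK228 and 428 to 655 in solvent in heterozygous cultures. In wild type they ran from 696 to 815 and 636 to 863. In heterozygous FK228 against wild-type solvent cultures 12 were lower and 1 higher, where 25.9% and 24.9% of all genes were. Otof, the gene of otoferlin at the hair cell synapse, fell by 1.49 and 1.24 on the log2 scale between genotypes with FK228 and in solvent. None of the 16 was at 0 in a group. The part of hair cells in the Atp2b2 values was not tested.

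Atp2b1 encodes PMCA1, the pump found in nearly all cells, and lies on chromosome 10, 98914406 to 99026143 (plus strand). Its level ranged from 299.6 to 347 CPM in heterozygous cultures with FK228 and from 262 to 308 in heterozygous cultures in solvent. It ranged from 301 to 337 CPM in wild type with FK228 and from 265 to 312 in wild type in solvent. FK228 in heterozygous cultures gave a log2 fold change of 0.21 ± 0.07 (adjusted p = 0.0233) with overlapping groups, and -0.52 (adjusted p = 0.00307) when scaled by spike-ins, so its direction depends on the scaling. The call was lost without heterozygous FK228 library 5 or heterozygous solvent library 2 or 5. It was also lost with unfiltered genes (adjusted p = 0.0522). The genotype difference in solvent was -0.08 ± 0.07 (adjusted p = 0.777). Atp2b1 made up between 81.2% and 85.5% of the summed PMCA transcripts per kb in the 4 groups.

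Atp2b3 encodes PMCA3, known from brain, and lies on chromosome X, 73503086 to 73571005 (plus strand). It had 5, 0, 0 and 1 counts in heterozygous cultures with FK228, 2, 7, 9 and 9 in heterozygous cultures in solvent, 4, 3, 0 and 0 in wild type with FK228 and 5, 6, 5 and 10 in wild type in solvent. It was too low to be tested, so 6 of the 7 genes entered every count above.

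In wild-type solvent cultures the levels per kb of exon were, from high to low, 19.4 ± 1.46 CPM for Atp2b1, 4.04 ± 0.70 for Atp2a2, 3.08 ± 0.49 for Atp2b2, 1.85 ± 0.43 for Atp2a3, 0.75 ± 0.056 for Atp2b4, 0.36 ± 0.13 for Atp2a1 and 0.073 ± 0.032 for Atp2b3. Atp2a2 and Atp2b2 overlapped over the 4 libraries, and no other neighbours in that order did. In heterozygous solvent cultures Atp2a3, at 0.11 CPM per kb, came below Atp2a1, at 0.30, and its libraries overlapped only those of Atp2b3, at 0.094.

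**Figure D3:**
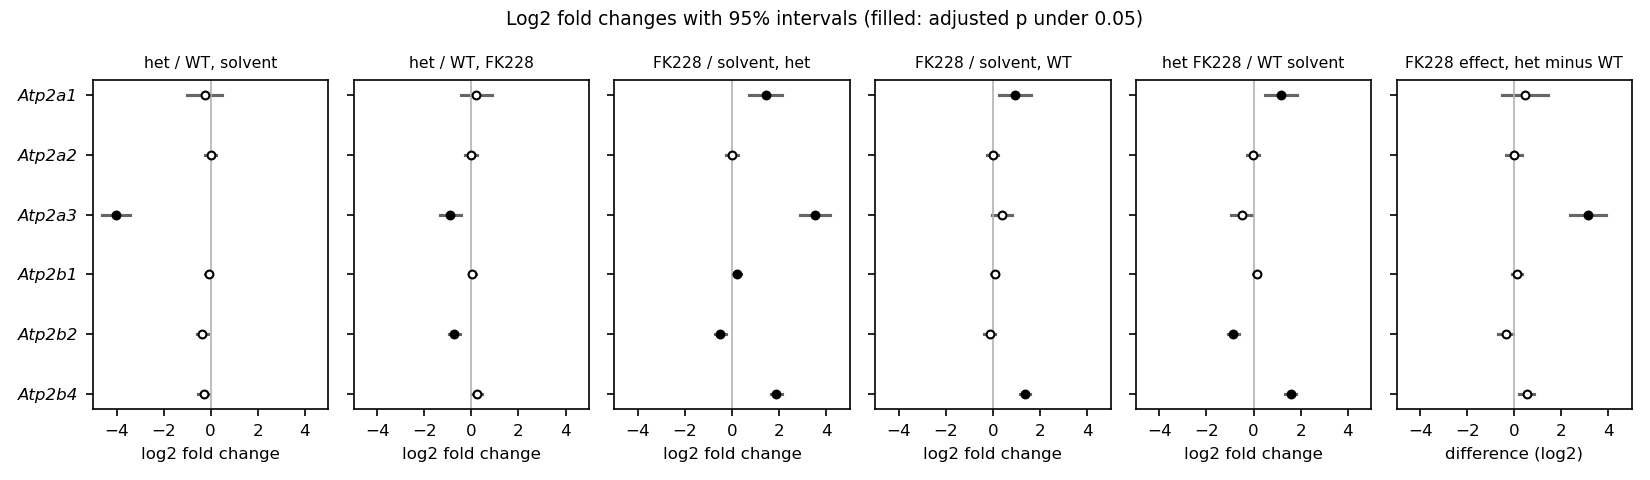
Log2 fold change of the 6 tested pump genes in the 6 comparisons, with the 95% interval of the fit as a line, filled where the adjusted p is under 0.05, in TMM scaling. Atp2a3 is at -4.03 in the first panel and 3.13 in the last, Atp2b4 is at 1.88 and 1.35 with FK228, and Atp2b1 with FK228 in heterozygous cultures is at 0.21 here and at -0.52 by spike-in scaling.

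Genes with a profile like that of Atp2a3 were sought over the 16 libraries as the smallest root-mean-square difference of centred log2 CPM. They were Snap25 at 0.66, Sncb at 0.82, Tmem145 at 0.87, Tmem179 at 0.87 and Ina at 0.88, among 14364 genes, beside 1.77 for the spread of Atp2a3 about its own mean. Snap25 encodes a protein of synaptic vesicle fusion, Sncb beta-synuclein and Ina a neuronal intermediate filament. Snap25 averaged 22.1 ± 1.72 CPM in heterozygous cultures with FK228 and 1.93 ± 0.76 in heterozygous cultures in solvent, 48.5 ± 9.38 in wild type with FK228 and 18.5 ± 6.90 in wild type in solvent. Its genotype difference in solvent was -3.25 ± 0.27 on the log2 scale, with no overlap, which the choice by likeness partly sets. Tmem145 was at 0 counts in all 4 heterozygous solvent libraries. With FK228 in wild type the 5 genes had log2 fold changes of 1.04 to 1.88. For Atp2a3 the wild-type value was 0.39, and the difference from these genes was not tested.

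**Figure D4:**
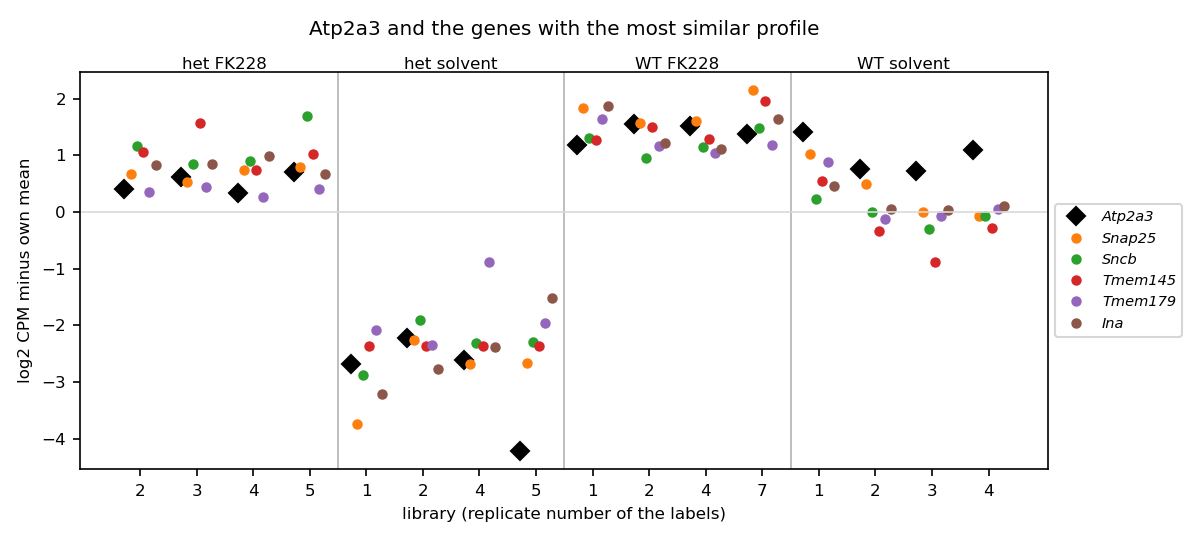
Log2 CPM (prior count 2) minus each gene's mean over the 16 libraries, for Atp2a3 (black diamonds) and its 5 most similar genes (circles), by library. All 6 genes are lowest in the heterozygous solvent libraries, and in wild-type solvent libraries Atp2a3 is at 0.72 to 1.41, above the 5 others.

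The 12 neuronal markers were measured beside Atp2a3. Of the 12, 6 were lower in heterozygous solvent cultures than in wild type (median log2 fold change -0.81, against -0.01 over all genes) and 3 with FK228, where 0.823% and 0.928% of all genes were lower. With FK228 against solvent, 6 were higher and 1 lower in heterozygous cultures, where 23.8% and 24.7% of all genes were. In wild type 4 were higher and 3 lower, near the 23.7% and 25.3% of all genes. The list includes Snap25, the only 1 of the 12 called in the difference of the FK228 effects, where 0.0234% of all genes were. The 12 summed to 432 ± 59.8 CPM in heterozygous cultures with FK228, 292 ± 57.2 in heterozygous cultures in solvent, 695 ± 160 in wild type with FK228 and 470 ± 125 in wild type in solvent. None of the 12 was at 0 in a group, and the part of neurons in the Atp2a3 values was not tested. In cell types known to express Atp2a3, 0 of 10 macrophage markers, 0 of 7 endothelial markers and 0 of the 2 tested platelet markers differed by genotype in solvent, where 2.03% of all genes did, with median log2 fold changes of -0.38, 0.05 and -0.36. With FK228 on both sides, 1 macrophage marker, C1qc (-1.12 ± 0.26, adjusted p = 0.0265), and 1 platelet marker, Pf4 (-0.87 ± 0.20, adjusted p = 0.0244), were lower in heterozygous cultures. Of all genes 0.928% were lower in that comparison. The part of these cells in the Atp2a3 values was not tested. With FK228 all 10 macrophage markers fell in both genotypes, where 24.7% (heterozygous) and 25.3% (wild type) of all genes fell. Their sum was 36.0 CPM in heterozygous cultures with FK228 against 368 in solvent, and 57.2 in wild type with FK228 against 447 in solvent. The 7 endothelial markers summed to 210.3 CPM in heterozygous cultures with FK228, 247 in heterozygous in solvent, 179 in wild type with FK228 and 236 in wild type in solvent. The 7 platelet markers summed to 9.98 CPM in heterozygous cultures with FK228, 15.5 in heterozygous in solvent, 14.5 in wild type with FK228 and 19.0 in wild type in solvent, with 2 or 3 of them at 0 in a group.

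For Atp2b2, the most similar profiles were those of Pik3c2b at 0.13, Cyp26b1 at 0.16, Chst2 at 0.17, Gpr45 at 0.17 and Dstyk at 0.19, beside 0.35 for its own spread. Pik3c2b, a lipid kinase gene, lies on chromosome 1, 133045667 to 133108687, and had log2 fold changes between genotypes of -0.53 ± 0.09 in solvent and -0.75 ± 0.09 with FK228, which the choice by likeness partly sets. It is within 1 Mb of Atp2b4. Of the 28 other tested genes in that 1 Mb window on each side of Atp2b4, 3 differed by genotype in solvent, Btg2, Pik3c2b and Gm37949. Around Atp2b2, 2 of 35 neighbours did, both lower in heterozygous cultures, and around Atp2a3 0 of 26 did, beside 2.03% of all genes.

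Of the other genes that handle calcium, none of the 40 tested in 6 lists differed between heterozygous and wild-type solvent cultures, where 2.03% of all genes did. With FK228 on both sides, where 2.14% of all genes did, 1 differed: Calr, the gene of the store protein calreticulin, was higher in heterozygous cultures by 0.31 ± 0.07 (log2, adjusted p = 0.035). That call was lost in 6 of the 16 fits without 1 library (adjusted p up to 0.117): without heterozygous FK228 libraries 2, 3 or 4, or wild-type FK228 libraries 2, 4 or 7. It was also lost with a covariate of Y-linked genes (adjusted p = 0.0693) and with the replicate block (adjusted p = 0.172). By spike-in scaling Calr was lower, at -0.42 (adjusted p = 0.00478). None of the lists held a gene with a called difference between the 2 FK228 effects.

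With FK228 itself, genes in all 6 lists changed. Slc8b1, the mitochondrial sodium-calcium exchanger, rose by 1.35 ± 0.11 in heterozygous and 1.21 ± 0.11 in wild-type cultures. Hrc, a calcium-binding protein of the store, rose by 1.51 ± 0.16 and 1.52 ± 0.15. Stim1, the store sensor, rose by 0.82 ± 0.11 and 0.93 ± 0.11, and Saraf, a regulator of store-operated entry, by 0.91 ± 0.10 and 0.81 ± 0.10. Smdt1, a subunit of the mitochondrial uniporter, fell by 0.66 in heterozygous and by 0.48 in wild-type cultures. Nptn, a PMCA partner, rose by 0.93 ± 0.07 and 0.97 ± 0.07. Ryr1, a release channel of muscle, averaged 2.17 CPM in heterozygous cultures with FK228 and 0.22 in solvent, and 1.82 in wild type with FK228 and 0.036 in solvent. By list, of 10 other calcium transporters tested 3 rose and 3 fell in each genotype. Of 8 SERCA regulators and store proteins 4 rose and 1 fell in each genotype. Of 6 genes of store-operated entry 3 rose and 0 fell, and of 7 of the uniporter 3 rose and 3 fell in each genotype. Of 4 release channels 2 rose in each, and 1 fell in heterozygous cultures. Of 5 PMCA partners 3 rose in heterozygous cultures and 2 in wild type. These counts stand beside 48.4% and 49% of all genes. By spike-in scaling Itpr1, a release channel of the store, was at -0.04 in heterozygous cultures instead of 0.67. In heterozygous cultures the calls of Stim1 (0.092, adjusted p = 0.678), Saraf (0.22, adjusted p = 0.149) and Nptn (0.22, adjusted p = 0.122) were also lost by that scaling.

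**Figure D5:**
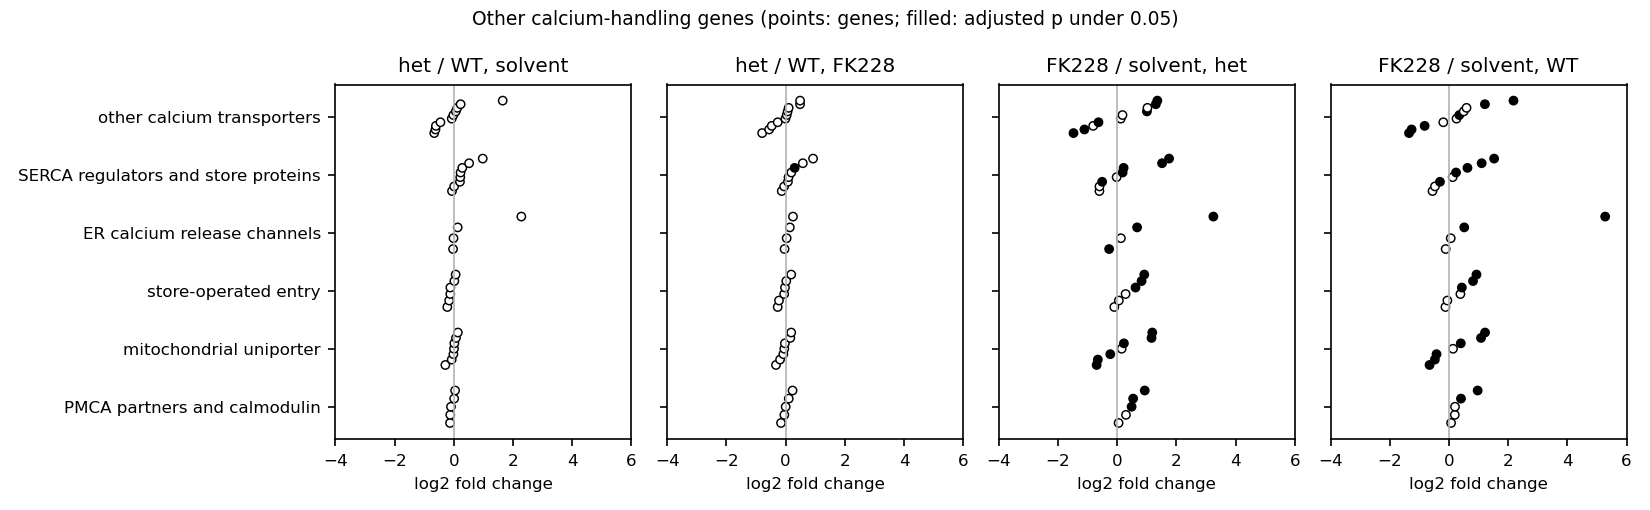
Log2 fold changes of the other calcium-handling genes by list in 4 comparisons, with 1 point per gene, filled where the adjusted p is under 0.05, in TMM scaling. In the 2 genotype panels all points are open but that of Calr, and in the FK228 panels filled points lie on both sides of 0.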

How the data were processed

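Per the labels' protocols, cDNA was made by oligo dT priming and template switching, tagmented and sequenced in paired ends. The authors deposited gene counts per library and a table of normalized signal. Per the submitters' processing notes the tools were STAR 2.5.2a and DESeq2, and the genome was GRCm38.p4. The unstranded counts were used, since both strand columns held equal shares (49.8% to 49.9%). ERCC rows and rows of reads in no gene (10.4% to 20.8%) stayed out of library sizes. Each normalized value gave a whole count once multiplied by 1 factor per library, so that table served only as an alternative.

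The 7 genes, the lists and the rule for named genes were chosen with earlier results of these data known. The rule named all 7 genes, Rest, up to 2 called genes of each list, and the 5 genes most similar to Atp2a3 and to Atp2b2. Some list genes that it names are not reported here, though the list counts include them. The filter for low genes was filterByExpr (count 10, total 15), which left 17125 genes, tested with edgeR 4.0.16 (quasi-likelihood, TMM factors, all 16 libraries, R 4.3.3). P-values were adjusted by Benjamini-Hochberg over all genes, and those under 0.05 were called. Tests were checked on simulated data. Exon lengths and positions are from GENCODE M21 (GRCm38). Also tried were spike-in scaling, DESeq2 1.42.0, RLE factors, unfiltered genes, a fit of just both groups, the replicate block, a covariate of Y-linked genes and each library left out. Reads recovered from the normalized table were added after the data were seen. How spike-ins were added is not given in the sources used here. Same-numbered libraries mostly did not deviate together (2 of 17 pairs over a correlation of 0.1, range -0.231 to 0.169). The labels do not say what the numbers mark, so a shared litter or day cannot be told from them. The main fit did not use the numbers.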

Additional observations from a re-analysis of the deposited data

Results flagged for a closer look

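In heterozygous solvent cultures, library 1 stood apart for Atp2a1, at 1.54 CPM beside 0.917 CPM in the nearest library. Chance sets about 1 in 20 such groups of 4 apart. The FK228 effects on Atp2a3 differed between genotypes by 3.13 on the log2 scale, heterozygous minus wild type, by a test of the difference itself (adjusted p = 0.0014 in edgeR).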

How the results depend on the processing

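The Atp2a3 difference between genotypes in solvent, its FK228 effect in heterozygous cultures and the Atp2b4 FK228 effects were called under every alternative run. By spike-in scaling the median gene lay at a log2 fold change of -0.18 and -0.74 between genotypes (solvent first, FK228 second), -0.72 and -0.16 for FK228 (heterozygous first), -0.89 for heterozygous FK228 against wild-type solvent cultures and -0.56 for the difference of effects. Relative to those medians, in the same order, Atp2a3 stood at -4.02, -0.91, 3.54, 0.44, -0.48 and 3.11. By spike-in scaling 5 pump genes were called between genotypes with FK228 (2 by TMM), 1 with FK228 in wild type (2), 5 in heterozygous FK228 against wild-type solvent cultures (3) and 2 in the difference of effects (1). In the difference of effects Atp2b2 was the gene gained.

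Spike-in scaling turned the sign of Atp2a1 (-0.51), Atp2b1 (-0.69), Atp2b4 (-0.52), Calr (-0.42) and Rest (-0.60) between genotypes with FK228, and of Rest (-0.056) in solvent. With FK228 it turned Atp2b1 (-0.52) and Itpr1 (-0.043) in heterozygous cultures and Atp2b1 (-0.075) in wild type. In heterozygous FK228 against wild-type solvent cultures it turned Atp2b1 (-0.77), Calr (-0.45), Itpr1 (-0.23), Saraf (-0.084), Stim1 (-0.0042) and Ina (-0.19). In the difference of effects it turned Atp2a1 (-0.12), Atp2b1 (-0.45), Atp2b4 (-0.068) and Rest (-0.54). Summed SERCA ratios by spike-in scaling were 0.648 and 0.514 between genotypes in solvent and with FK228, 0.792 and 0.998 with FK228 in heterozygous and wild type, and 0.514 for heterozygous FK228 against wild-type solvent cultures. Summed PMCA ratios were 0.599 between genotypes with FK228, 0.704 and 0.972 with FK228 in heterozygous and wild type, and 0.582 for heterozygous FK228 against wild-type solvent cultures. The cause was not tested.

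With the replicate block, 0 pump genes were called between genotypes with FK228, 1 with FK228 in wild type and 0 in the difference of effects, where Atp2a3 stayed at 3.23 with an adjusted p of 0.0568. With FK228 on both sides Atp2a3 was at -0.78 (adjusted p = 0.379) and Atp2b2 at -0.62 (adjusted p = 0.0798). The labels do not say what the numbers mark, so whether this block should be used was not settled. Over all genes the block gave 211 calls between genotypes in solvent (347 without it), 107 with FK228 (366) and 0 in the difference of effects (4). DESeq2 gave 526, 636 and 30 in the same order. Unfiltered genes gave 10 calls in the difference of effects. Spike-in scaling gave 12857 between genotypes with FK228 and 4069 in the difference of effects. With the Y-linked covariate 1 pump gene was called between genotypes with FK228, and Atp2a3 had an adjusted p of 0.0642. The Y-linked genes summed to 130 ± 62.4 CPM in heterozygous cultures with FK228 and 199 ± 66.0 in heterozygous cultures in solvent. They summed to 104 ± 93.7 CPM in wild type with FK228 and 92.7 ± 66.2 in solvent, and the lowest library of each wild-type group was at 0. The sex make-up of the pools thus varied. Near 0, Atp2a2 changed sign: between genotypes in solvent it was 0.0018 with only the groups compared, 0.10 with the replicate block and 0.011 with the Y-linked covariate. Its replicate block values were 0.00092 between genotypes with FK228, 0.0056 with FK228 in wild type and 0.0065 in heterozygous FK228 against wild-type solvent cultures. With FK228 in wild type it was 0.0027 by DESeq2 and 0.0027 with RLE factors. Rest in heterozygous FK228 against wild-type solvent cultures was 0.0023 with RLE factors and 0.030 with the Y-linked covariate. Atp2a3 in that comparison passed by DESeq2 (adjusted p = 0.028) and with only the groups compared (adjusted p = 0.0347). It also passed by spike-in scaling, at -1.37 (adjusted p = 3.25e-05).

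With 1 library left out, all calls between genotypes with FK228 fell to as few as 188 (without wild-type FK228 library 7; 235, 237 and 221 without heterozygous FK228 library 4 and wild-type FK228 libraries 1 and 4). Without 1 library, called pump genes numbered 1 to 2 between genotypes with FK228 and 1 to 3 with FK228 in wild type. They numbered 4 to 5 with FK228 in heterozygous cultures and 3 to 4 in heterozygous FK228 against wild-type solvent cultures. Atp2a2 ran from -0.076 to 0.12 between genotypes in solvent, -0.096 to 0.038 with FK228, -0.099 to 0.035 and -0.079 to 0.11 with FK228 in heterozygous and wild type, -0.11 to 0.094 in heterozygous FK228 against wild-type solvent cultures and -0.13 to 0.058 in the difference of effects. Rest ran from -0.045 to 0.023 and -0.038 to 0.054 in the last 2. Low counts limit Atp2a1, Atp2b3 and, in heterozygous solvent cultures, Atp2a3.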
